A study of Mus musculus with 13 samples.

Results

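Receptor genes that steer T cells into, within and out of lymphoid tissue were followed in CD4 T cells of mouse spleen: Ccr7, S1pr1, S1pr4, Gpr183, Cxcr4 and Cd69. They are 6 of the 56748 genes in the deposited table and were chosen by name, as every row carrying one of these symbols, and each of the 6 was among the 14059 genes with enough counts to be tested. RNA was sequenced in 13 libraries of 5 groups. The sort kept cells with a T cell receptor and CD4 that lacked Thy1.1. Since Thy1.1 reported Foxp3 in all mice, regulatory T cells marked by the reporter were left out. All mice also carried Vk12653 myeloma cells, received 50 µg of an antibody that depletes NK1.1-bearing cells, were given antibody at 20 µg on days 10, 13 and 16 and were sampled on day 18.

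The first group was 2 libraries of Eomes-TKO mice given an agonist antibody to 4-1BB, a costimulatory receptor of T cells. Next were 3 libraries each of the GFP+ and GFP− fractions of Eomes-GFP mice given the same antibody, in which GFP reports Eomes. The other groups were 3 libraries of Eomes-TKO mice and 2 of Eomes-GFP mice, both given control IgG. The labels do not describe how Eomes-TKO mice were made or in which cells the change acts, and they give no age. Only the treated Eomes-GFP cells were divided by GFP, so a comparison of a fraction with IgG cells differs in treatment and in the sort at once. Library names of the 2 genotypes run in separate number series, and genotype and series cannot be told apart.

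Total estimated counts lay between 6080975 and 10881146 per library, and the member with the fewest counts, Cxcr4, had between 132 and 709. The unit of all levels is CPM, the count relative to a library size that TMM adjusted, for which 3 counts equal 0.271 to 0.468 CPM. Eomes checked the labels: it had 3.6 and 8.0 CPM in treated Eomes-TKO libraries, 570, 706 and 685 CPM in GFP+ libraries, 3.5, 1.8 and 2.3 CPM in GFP− libraries, 1.4, 3.0 and 3.2 CPM in Eomes-TKO IgG libraries and 13.99 and 16.84 CPM in Eomes-GFP IgG libraries. Eomes overlaps an antisense gene in its exons, so its counts are uncertain where strand was not used. The 5 defining CD4 T cell markers summed to between 2406 and 4397 CPM in every library and the 2 CD8 markers to between 3.5 and 12.3 CPM. The CD4 sum was highest in GFP+ libraries, at 3968 to 4397 CPM, against 2726 to 2921 CPM in GFP− libraries. Summed B cell markers lay between 6.6 and 23.7 CPM over all libraries.

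T cells enter the splenic white pulp and lymph nodes through CCR7, which follows the chemokines CCL19 and CCL21 made by stromal cells of T zones. They leave through S1PR1, a receptor for sphingosine 1-phosphate, whose level is high in blood and lymph and low in tissue. CD69, a membrane protein that appears soon after activation, binds S1PR1 and takes it off the surface, which holds cells in place. GPR183 follows oxysterols to the border of T and B zones, CXCR4 follows CXCL12 and S1PR4 is a second receptor for sphingosine 1-phosphate on lymphocytes. FOXO1 and KLF2 are transcription factors known to maintain Ccr7 and S1pr1 in quiescent T cells.

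The 250 bases before the RefSeq start are shown for the 3 members with an entry in the RefSeq promoter table (build GRCm38.p6), 2 of which, Cxcr4 and S1pr4, differed between GFP+ and GFP− cells in the same direction, while Gpr183 did not pass the test. All 3 genes lie on the minus strand and the sequences are written 5′ to 3′ on it, with TATAAA (as read on this strand) and the E-box CANNTG in capitals.
Cxcr4: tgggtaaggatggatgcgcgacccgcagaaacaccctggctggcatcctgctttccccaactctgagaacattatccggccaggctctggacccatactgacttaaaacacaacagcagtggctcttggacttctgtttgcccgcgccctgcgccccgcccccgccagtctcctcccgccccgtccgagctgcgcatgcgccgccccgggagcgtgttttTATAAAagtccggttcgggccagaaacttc
Gpr183: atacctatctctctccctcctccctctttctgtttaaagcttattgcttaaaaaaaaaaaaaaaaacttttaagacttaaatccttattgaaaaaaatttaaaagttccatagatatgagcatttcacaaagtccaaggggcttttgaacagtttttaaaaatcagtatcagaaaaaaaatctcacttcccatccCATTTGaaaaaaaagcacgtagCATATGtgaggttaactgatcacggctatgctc
S1pr4: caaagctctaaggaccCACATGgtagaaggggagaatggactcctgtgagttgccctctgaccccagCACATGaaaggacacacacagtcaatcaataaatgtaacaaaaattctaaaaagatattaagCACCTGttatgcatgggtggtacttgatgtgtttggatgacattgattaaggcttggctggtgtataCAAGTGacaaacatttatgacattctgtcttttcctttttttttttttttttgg
The Cxcr4 sequence (chr1:128592300-128592549) had 61.2% G and C and 19 CpG pairs, with TATAAA beginning 30 bases before the start and on the other strand at 32 bases, overlapping it. The Gpr183 sequence (chr14:121965194-121965443) had 32% G and C, 2 CpG pairs and 2 E-boxes, 55 and 33 bases before the start. The S1pr4 sequence (chr10:81500138-81500387) had 38.8% G and C, no CpG pair and 4 E-boxes, at 234, 183, 121 and 54 bases.

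Over 32851 promoters of this length the median was 52.4% G and C with 6 CpG pairs. On either strand, TATAAA was in 12.4% of them and CANNTG, which reads the same on both strands, in 66.2%. GGTGTGA (T-box, the family of Eomes) was in 3.33% of all promoters, GGGTGTG (Krueppel-like) in 6.93%, GTAAACA (Forkhead) in 3.17%, TGANTCA (AP-1) in 6.75% and TGTGGTT (Runx) in 4.4%. None of these last 5 strings was in any of the 3 sequences shown. The first bases after the RefSeq start lie as an unbroken run in a GENCODE transcript for Gpr183 and not for Cxcr4 or S1pr4. The positions of the starts were not compared between the annotations.

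All 6 genes are protein coding and on the minus strand, Ccr7 on chromosome 11, S1pr1 on 3, S1pr4 on 10, Gpr183 on 14, Cxcr4 on 1 and Cd69 on 6 (GENCODE M21, GRCm38). Compared per length of merged exons, S1pr1 was the most abundant member in each of the 5 groups, with a mean of 255 CPM per kb in treated Eomes-TKO cells, 138 in GFP+ cells, 196 in GFP− cells, 301 in Eomes-TKO IgG cells and 219 in Eomes-GFP IgG cells. Ccr7 came second in 4 groups, with 184 CPM per kb in treated Eomes-TKO cells, 149 in GFP− cells, 210 in Eomes-TKO IgG cells and 186 in Eomes-GFP IgG cells. In GFP+ cells Ccr7 was the least abundant of the 6, at 17.3 ± 0.56 CPM per kb (SD, n = 3). Cxcr4 was last in the other 4 groups and above Cd69 and Ccr7 in GFP+ cells, at 39.3 ± 6.8 CPM per kb. Its place above Cd69 rests on the merged exon lengths, 1808 bases for Cxcr4 and 6509 for Cd69, which join all annotated exons of a gene. Not divided by length, Cd69 was above Cxcr4 in GFP+ cells, at 176 against 71.1 CPM.

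**Figure D1:**
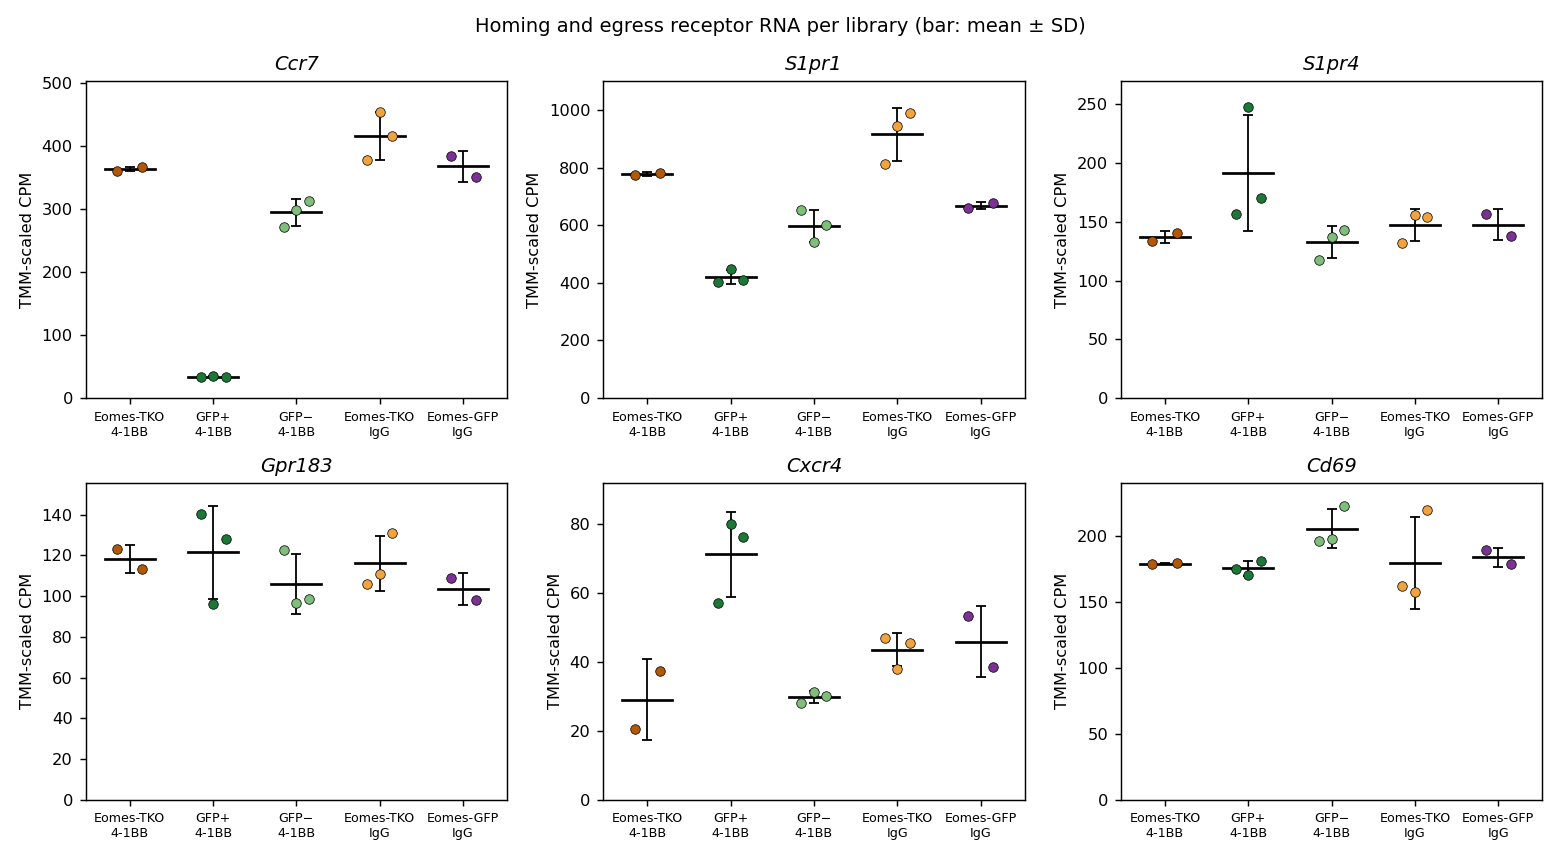
TMM-scaled CPM (vertical axis, from 0, a separate scale for each gene) of the 6 receptor genes in each of 13 libraries (points) of 5 groups, with the group mean and SD as bars. The 3 GFP+ points of Ccr7 lie between 33.2 and 35.3 CPM, below every other library, while the points of Gpr183 overlap between neighbouring groups.

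GFP+ cells had less Ccr7 and S1pr1 and more Cxcr4 and S1pr4 RNA than GFP− cells of the same treated animals, and Gpr183 and Cd69 did not pass the test. Of the 6 members, 4 passed adjusted p 0.05 (edgeR's quasi-likelihood test with Benjamini-Hochberg adjustment), 2 higher and 2 lower, where 37.1% of all tested genes passed (20.7% higher and 16.5% lower). Libraries of the fractions did not overlap for 5 of the 6, against 51.3% of all tested genes. The median log2 fold change was -0.02 over the members and 0.02 over all tested genes.

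Ccr7, the entry and T zone receptor, had 33.8, 35.3 and 33.2 CPM in the GFP+ libraries of animals 1, 2 and 3, against 272, 298 and 313 CPM in their GFP− libraries. Every GFP+ library was far below every GFP− library. The log2 fold change was -3.11 ± 0.10 (SE, adjusted p = 7.1e-11), a level 8.63-fold lower in GFP+ cells, and within animals the GFP+ value was 0.124, 0.119 and 0.106 of the GFP− value. Ccr7 was also the member with the least spread among the GFP+ libraries relative to its mean except for Cd69, with a coefficient of variation of 3.24%, against 7.12% in GFP− libraries.

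S1pr1, the egress receptor, had 401, 449 and 411 CPM in GFP+ libraries against 652, 541 and 599 CPM in GFP− libraries. The fractions did not overlap, although the nearest values were 449 CPM in GFP+ cells and 541 CPM in GFP− cells of the same animal. The log2 fold change was -0.51 ± 0.10 (adjusted p = 0.00108), and the GFP+ value was 0.615, 0.828 and 0.687 of the GFP− value in animals 1, 2 and 3. S1pr1 thus differed far less than Ccr7, and it remained the most abundant member per length in GFP+ cells.

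S1pr4, the other sphingosine 1-phosphate receptor among the members, had 156, 248 and 170 CPM in GFP+ libraries against 118, 137 and 143 CPM in GFP− libraries. GFP+ values were higher in all 3 animals, and the library of animal 2 stood well above the other two. The log2 fold change was 0.53 ± 0.15 (adjusted p = 0.0119). Without GFP+ replicate 2 it was 0.26 with an adjusted p of 0.0847, and without GFP− replicate 1 it was 0.45 with an adjusted p of 0.0575, so the call rests on single libraries. The ratio of S1pr1 to S1pr4 counts within a library was 2.56, 1.81 and 2.42 in GFP+ cells, against 5.53, 3.94 and 4.18 in GFP− cells, without overlap.

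Cxcr4, the CXCL12 receptor, had 57.1, 80.0 and 76.2 CPM in GFP+ libraries against 27.9, 31.2 and 30.2 CPM in GFP− libraries. All GFP+ libraries were above all GFP− libraries, and within animals the GFP+ value was 2.04, 2.56 and 2.53 times the GFP− value. The log2 fold change was 1.26 ± 0.20 (adjusted p = 0.000192). With Ccr7 moving the other way, the ratio of Ccr7 to Cxcr4 counts was 0.592, 0.442 and 0.436 in GFP+ libraries, against 9.73, 9.55 and 10.4 in GFP− libraries.

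Gpr183, the oxysterol receptor, had 140, 96.1 and 128 CPM in GFP+ libraries against 123, 96.9 and 98.4 CPM in GFP− libraries. The fractions overlapped, with a log2 fold change of 0.20 ± 0.14 (adjusted p = 0.295). Gpr183 lies opposite Ubac2 on the genome, with no overlap of exons in GENCODE M21, and the strand setting of the counting is not given in the sources used here.

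Cd69, which removes S1PR1 from the surface, had 175, 170 and 181 CPM in GFP+ libraries against 196, 198 and 223 CPM in GFP− libraries. GFP+ values were lower in all 3 animals and the fractions did not overlap, but the log2 fold change of -0.23 ± 0.11 did not pass (adjusted p = 0.137). It passed under upper-quartile scaling, at -0.36 with an adjusted p of 0.0251, and in a fit of these 2 groups alone, at -0.27 with an adjusted p of 0.0356. Upper-quartile scaling also moved the median of all genes by -0.14 in this comparison. The ratio of S1pr1 to Cd69 counts was 2.29, 2.64 and 2.27 in GFP+ libraries, against 3.32, 2.74 and 2.69 in GFP− libraries, and the groups came as near as 2.64 and 2.69.

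Some markers of other cells, of naive T cells and of handling differed between the fractions. The sum of 10 immediate early genes, which include Fos and Junb and rise with antigen signals and with cell handling, was 1721 to 1949 CPM in GFP+ libraries against 4038 to 4198 CPM in GFP− libraries. Of 9 tested, 6 passed as lower and Egr2 as higher (1.39 ± 0.25), while Fosb and Egr1 did not pass. The sum of 5 naive T cell markers, among them Lef1 and Tcf7, was 1084 to 1465 CPM in GFP+ against 4669 to 5391 CPM in GFP− libraries, and all 5 passed the test as lower. The sum of 9 myeloid and dendritic markers was 58.2 to 70.4 CPM in GFP+ against 16.6 to 30.6 CPM in GFP− libraries. Up to 2 of the 9, among Adgre1, Flt3 and Xcr1, were at 0 in a library. Of 6 tested, Cd68, Itgam and Itgax passed as higher, and Lyz2, Csf1r and Zbtb46 did not pass. Plasma and myeloma cell markers summed to 131 to 230 CPM in GFP+ against 91.0 to 97.0 CPM in GFP− libraries, of which Irf4, also an activation gene of T cells, had 108 ± 48.4 CPM in GFP+ cells and 36.95 ± 4.3 CPM in GFP− cells (SD, n = 3 each). Xbp1, at 55.9 CPM in GFP+ cells and 57.5 CPM in GFP− cells, and Jchain did not pass. The plasma cell receptor gene Tnfrsf17 had 0 counts in all 13 libraries and Mzb1 at most 4. The 6 B cell markers summed to 14.5 to 23.7 CPM in GFP+ against 13.8 to 16.9 CPM in GFP− libraries, which overlapped, and of them Ms4a1 had at most 3 counts in a library. Cd22 did not pass. Cd79a passed as lower, at 0.24 CPM in GFP+ cells, under 3 counts, and 1.2 CPM in GFP− cells. Each of the 6 members can also be expressed outside CD4 T cells, and the part of these cells and of handling in the differences was not tested. In these bulk samples, fewer cells carrying a transcript and less of it per cell cannot be told apart.

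**Figure D2:**
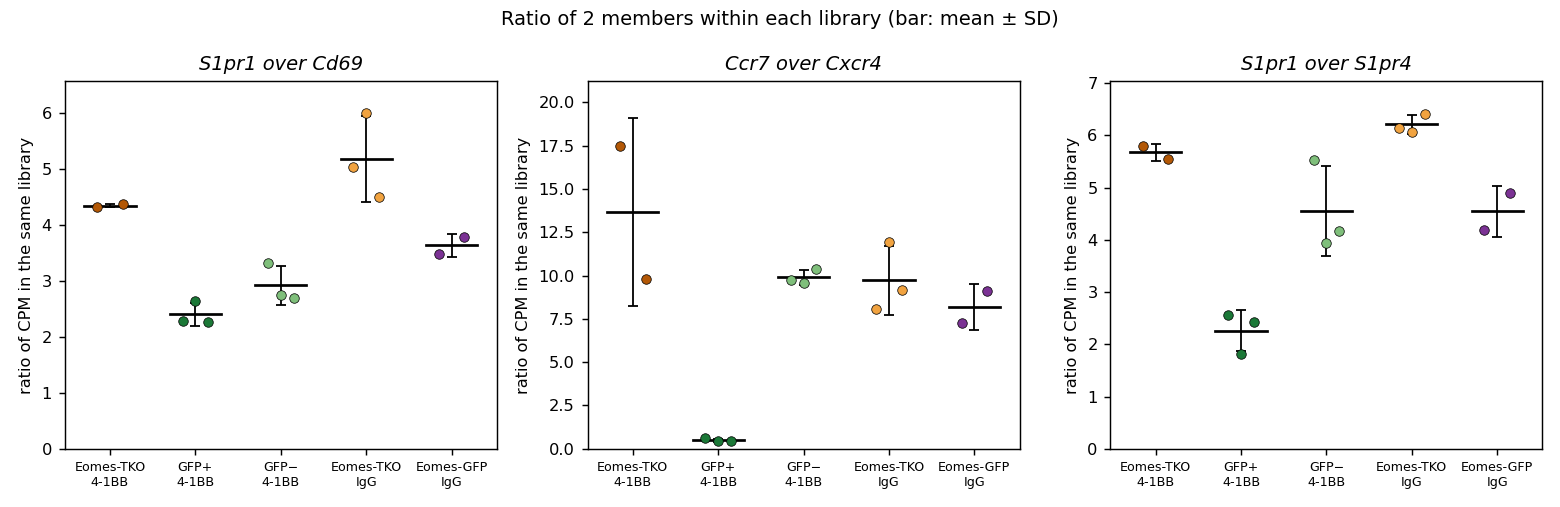
Ratio of 2 receptor genes within each library (vertical axis, from 0, no unit; points are libraries, bars the group mean and SD) in 5 groups. The ratio of Ccr7 to Cxcr4 was below 1 in all 3 GFP+ libraries and at least 7.23 in every other library.

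Against Eomes-GFP cells given IgG, GFP+ cells had less Ccr7 and S1pr1 and more Cxcr4 RNA, 3 of the 6 members past the test where 34.2% of all tested genes passed (18.8% higher and 15.4% lower). Libraries of these groups did not overlap for the same 3 members, against 57.1% of tested genes. These comparisons reuse the same 3 GFP+ libraries, so they are not independent of the one between the fractions. Ccr7 had 385 and 350 CPM in the IgG libraries, and GFP+ cells were 10.8-fold lower, a log2 fold change of -3.43 ± 0.11 (adjusted p = 5.9e-11). S1pr1 had 658 and 676 CPM in the IgG libraries, with a log2 fold change of -0.67 ± 0.11 (adjusted p = 0.000276). All 3 GFP+ libraries were below both IgG libraries for both genes.

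Cxcr4 had 53.2 and 38.5 CPM in the IgG libraries, the nearest of which came close to the lowest GFP+ library at 57.1 CPM. The log2 fold change was 0.64 ± 0.22 (adjusted p = 0.0365). The adjusted p was 0.0793 under upper-quartile scaling, 0.0716 with the replicate number as a block, 0.121 and 0.105 without GFP+ replicates 2 and 3, and 0.305 without Eomes-GFP IgG replicate 2. S1pr4, with 157 and 138 CPM in IgG libraries, did not pass at 0.38 ± 0.17 (adjusted p = 0.0955), and Gpr183 at 0.23 ± 0.16 and Cd69 at -0.07 ± 0.13 overlapped with the IgG libraries. Of the alternatives run, S1pr4 passed in 1, without GFP+ replicate 1, with an adjusted p of 0.0372. The 9 myeloid and dendritic markers summed to 58.2 to 70.4 CPM in GFP+ libraries against 9.7 to 10.7 CPM in Eomes-GFP IgG libraries, where 4 passed as higher and up to 3 were at 0 in a library. All 5 naive T cell markers were lower, with sums of 1084 to 1465 CPM in GFP+ against 5116 to 5280 CPM in IgG libraries. Immediate early genes summed to 1721 to 1949 CPM in GFP+ against 2688 to 2864 CPM in IgG libraries, and plasma and myeloma cell markers to 131 to 230 CPM against 68.4 to 80.1 CPM. Of 9 immediate early genes tested, 4 passed as lower and Egr2 as higher. The part of these markers in the member differences was not tested.

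No member passed between GFP− cells and Eomes-GFP IgG cells, where 0.761% of tested genes passed (0.654% higher and 0.107% lower), although libraries did not overlap for 4 of the 6 members, against 30% of tested genes. Ccr7 had 272, 298 and 313 CPM in GFP− libraries against 385 and 350 CPM in IgG libraries, with a log2 fold change of -0.32 ± 0.10 (adjusted p = 0.236). Cxcr4 had 27.9, 31.2 and 30.2 CPM in GFP− libraries against 53.2 and 38.5 CPM in IgG libraries, with a log2 fold change of -0.62 ± 0.22 (adjusted p = 0.324). Both genes were lower in every GFP− library than in either IgG library. Cxcr4 passed without the filter on low counts (adjusted p = 0.0156) and in a fit of these 2 groups alone (adjusted p = 0.0353), so its call depended on the fit. S1pr1 at -0.16 ± 0.11, S1pr4 at -0.15 ± 0.16, Gpr183 at 0.03 ± 0.16 and Cd69 at 0.16 ± 0.13 did not pass. Immediate early genes summed to 4038 to 4198 CPM in GFP− libraries against 2688 to 2864 CPM in Eomes-GFP IgG libraries. Of 9 tested, Junb, Nr4a1 and Dusp1 passed as higher and none as lower. Junb alone had a mean of 1981 CPM in GFP− cells against 990 CPM in IgG cells. The part of these genes in the member differences was not tested.

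Between Eomes-TKO and Eomes-GFP mice given IgG, no member passed the test, where 0.0142% of tested genes did, 2 genes in all. DESeq2 called 5 genes and no member, and 430 genes had an unadjusted p under 0.05. S1pr1 was the 1 member whose libraries did not overlap, where 18.3% of tested genes did not overlap, with 812, 943 and 990 CPM in Eomes-TKO libraries against 658 and 676 CPM in Eomes-GFP libraries. Its log2 fold change was 0.46 ± 0.11, with an unadjusted p of 0.00111 and an adjusted p of 1. Ccr7 had 378, 453 and 415 CPM in Eomes-TKO libraries against 385 and 350 CPM in Eomes-GFP libraries, which overlapped. The other 4 members had log2 fold changes between -0.07 and 0.16.

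In Eomes-TKO mice, treated and IgG cells did not differ past the test for any member, where 0.0427% of tested genes passed, 6 in all, and 506 had an unadjusted p under 0.05. DESeq2 called 59 genes and no member. Cxcr4 had 20.6 and 37.2 CPM in treated libraries against 47.02, 37.97 and 45.29 CPM in IgG libraries, with a log2 fold change of -0.57 ± 0.23 (unadjusted p = 0.0238, adjusted p = 1). The 2 treated libraries of Cxcr4 lay far apart, and the higher came near the lowest IgG library. S1pr1 had 773 and 783 CPM in treated libraries against 812, 943 and 990 CPM in IgG libraries, and Ccr7 had 361 and 366 CPM against 378, 453 and 415 CPM. Neither gene overlapped between the groups, at log2 fold changes of -0.24 ± 0.11 and -0.19 ± 0.10, so 3 of the 6 members did not overlap, against 15.9% of tested genes. S1pr4 at -0.10 ± 0.17, Gpr183 at 0.03 ± 0.16 and Cd69 at -0.00297 ± 0.13 overlapped.

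Among treated animals, undivided Eomes-TKO cells were compared with each fraction of Eomes-GFP cells. Against GFP− cells no member passed, where 0.0427% of tested genes passed (0.00711% higher and 0.0356% lower) and 980 had an unadjusted p under 0.05, and DESeq2 called 52 genes and no member. S1pr1, at 773 and 783 CPM in Eomes-TKO cells against 652, 541 and 599 CPM in GFP− cells, had a log2 fold change of 0.38 ± 0.11 (adjusted p = 0.433). Ccr7, at 361 and 366 CPM against 272, 298 and 313 CPM, had one of 0.30 ± 0.10 (adjusted p = 0.536). With Cd69, at 179 and 179 CPM in Eomes-TKO cells against 196, 198 and 223 CPM in GFP− cells, these were the 3 members without overlap, against 22.3% of tested genes.

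Against GFP+ cells, treated Eomes-TKO cells had more Ccr7 and S1pr1 and less Cxcr4 and S1pr4 RNA, 4 of 6 members where 34.6% of tested genes passed (15.7% higher and 18.8% lower). The same 4 members did not overlap, against 53% of tested genes. Ccr7 was 10.6-fold higher in Eomes-TKO cells, with a log2 fold change of 3.41 ± 0.11 (adjusted p = 6.33e-11), and S1pr1 had one of 0.89 ± 0.11 (adjusted p = 2.22e-05). Cxcr4, at 20.6 and 37.2 CPM in Eomes-TKO cells against 57.1, 80.0 and 76.2 CPM in GFP+ cells, had a log2 fold change of -1.28 ± 0.23 (adjusted p = 0.000579). S1pr4, at 133 and 141 CPM against 156, 248 and 170 CPM, had one of -0.48 ± 0.17 (adjusted p = 0.0371). Its adjusted p was 0.12 under upper-quartile scaling, 0.144 in a fit of these 2 groups alone, 0.203 without GFP+ replicate 2 and 0.217 and 0.0925 without treated Eomes-TKO replicates 1 and 2. Gpr183 at -0.04 ± 0.16 and Cd69 at 0.03 ± 0.13 overlapped. Myeloid and dendritic markers summed to 17.8 to 20.4 CPM in Eomes-TKO against 58.2 to 70.4 CPM in GFP+ libraries, naive T cell markers to 5874 to 5961 CPM against 1084 to 1465 CPM, and immediate early genes to 2708 to 3001 CPM against 1721 to 1949 CPM, and their part was not tested. Of 9 immediate early genes tested, 4 passed as higher and Egr2 as lower.

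**Figure D3:**
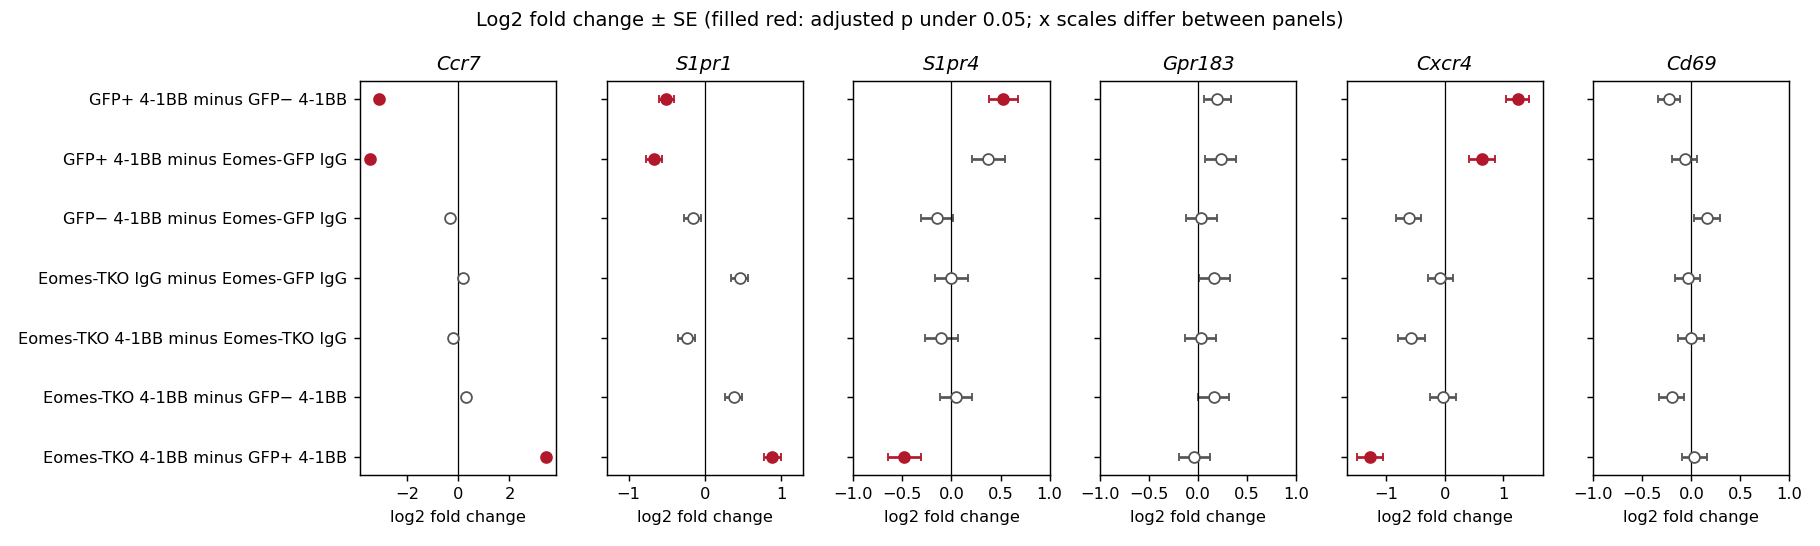
Log2 fold change with SE (horizontal axis, a separate scale for each gene) of the 6 receptor genes in the 7 comparisons (rows), with filled red points for an adjusted p under 0.05 in edgeR. Filled points occur only in the 3 comparisons that contain GFP+ cells, which share the 3 GFP+ libraries, and never for Gpr183 or Cd69.

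Ordered by group mean, Ccr7 ran from Eomes-TKO IgG (416 ± 37.6 CPM) over Eomes-GFP IgG (367 ± 24.2), treated Eomes-TKO (363 ± 3.5) and GFP− (294 ± 20.96) to GFP+ cells (34.1 ± 1.1, SD between libraries). Each of the first 2 groups overlapped with the next in this order, and neither GFP− nor GFP+ cells overlapped with the group before them. S1pr1 ran from Eomes-TKO IgG (915 ± 92.0 CPM) over treated Eomes-TKO (778 ± 7.1), Eomes-GFP IgG (667 ± 12.2) and GFP− (597 ± 55.2) to GFP+ cells (420 ± 24.98), and no neighbours overlapped in their libraries. For Cxcr4 the order was GFP+ (71.1 ± 12.3 CPM), Eomes-GFP IgG (45.8 ± 10.4), Eomes-TKO IgG (43.4 ± 4.8), GFP− (29.8 ± 1.7) and treated Eomes-TKO cells (28.9 ± 11.7). Only the GFP+ group and the step from Eomes-TKO IgG to GFP− cells were free of overlap there. For S1pr4 and Gpr183 every group overlapped with the next, and for Cd69 every group but the highest, GFP− cells, did so. Over all 13 libraries the highest value was 13.7 times the lowest for Ccr7, 3.88 times for Cxcr4, 2.47 for S1pr1, 2.11 for S1pr4, 1.46 for Gpr183 and 1.42 for Cd69.

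Of the factors known to maintain entry and egress receptors, Foxo1 was lower in GFP+ than in GFP− cells and Klf2 did not differ past the test. Foxo1 had 300 ± 10.2 CPM in GFP+ cells and 601 ± 45.3 CPM in GFP− cells (SD, n = 3 each), a log2 fold change of -1.003 ± 0.09 (adjusted p = 8.94e-07). Klf2 had 309 ± 34.6 CPM in GFP+ cells and 316 ± 13.0 CPM in GFP− cells, a log2 fold change of -0.03 that did not pass. Foxo1 overlaps an antisense gene in its exons, so its counts are uncertain where strand was not used.

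Of 25 transcription factors around these genes, all tested between GFP+ and GFP− cells, 9 passed as higher and 11 as lower, with a median log2 fold change of 0.14. Among all tested genes 20.7% passed as higher and 16.5% as lower. Beside Eomes, which the sort selected, the higher ones were led by Prdm1, the gene of BLIMP1 (3.50 ± 0.19), Runx3, a factor of cytotoxic and tissue-resident T cells (1.79 ± 0.12), and Zeb2 (1.34 ± 0.43). The lower ones were led by Bach2, a repressor of effector genes (-1.75 ± 0.16), Klf4, a factor of quiescent T cells (-1.72 ± 0.18), and Lef1, a factor of naive T cells (-1.46 ± 0.15). Zfp683, the gene of HOBIT, which represses egress genes in tissue-resident cells of mice, was at 0.04 CPM in GFP+ cells, under the level of 3 counts, and at 3.0 CPM in GFP− cells. In Eomes-TKO IgG cells against Eomes-GFP IgG cells, Eomes was the list gene that passed, at -2.64 (adjusted p = 0.0219). It did not pass in a fit of these 2 groups alone (adjusted p = 0.0634), nor without Eomes-TKO replicate 1 (0.0554) or 2 (0.17) or Eomes-GFP replicate 1 (0.0695) or 2 (0.344). The Zeb2 call between the fractions was lost with the replicate block (adjusted p = 0.056), with the animal block (0.0627), without GFP+ replicate 1 (0.0962) or 3 (0.0885) and without GFP− replicate 1 (0.0914) or 3 (0.107).

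Of 17 receptors related to the members, 15 were tested and 7 passed as higher and 5 as lower in GFP+ against GFP− cells, with a median log2 fold change of 0.33. The shares over all tested genes were 20.7% higher and 16.5% lower. Cxcr5, the follicle-homing receptor for CXCL13, had 306 ± 45.0 CPM in GFP+ cells and 18.2 ± 4.2 CPM in GFP− cells, a log2 fold change of 4.08 ± 0.30 (adjusted p = 1.4e-06). S1pr2, which confines follicular cells, had 36.8 ± 13.3 CPM in GFP+ cells and 11.1 ± 2.7 CPM in GFP− cells, a log2 fold change of 1.73 ± 0.26 (adjusted p = 0.000126). Adora2a, an adenosine receptor, rose by 1.90 ± 0.19 and Ccr4, a chemokine receptor of activated T cells, by 1.46 ± 0.29. Ccr9, the gut-homing receptor, fell by 1.66 and P2ry10b by 0.62 on the log2 scale. Gpr34, a lysophosphatidylserine receptor, was at 0.12 CPM in GFP+ cells and 4.6 CPM in GFP− cells, and Ccr10, a skin-homing receptor, at 0.29 CPM in GFP+ cells and 1.2 CPM in GFP− cells, both under 3 counts in GFP+ cells.

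Signalling genes downstream of these receptors were mostly higher in GFP+ cells. Of 38 listed, 36 were tested, and 20 passed as higher and 6 as lower, with a median log2 fold change of 0.41, where 20.7% of all tested genes were higher and 16.5% lower. Rgs genes encode brakes on G protein signalling, and they moved both ways: Rgs16 (4.23 ± 0.42), Rgs3 (1.498 ± 0.11) and Rgs1 (1.30 ± 0.12) were higher, and Rgs10 (-2.30 ± 0.42), Rgs2 (-1.33 ± 0.14) and Rgs14 (-0.37 ± 0.10) were lower. Gnas, a stimulatory G protein subunit, was higher (1.10 ± 0.13), and Arrb1, an arrestin that uncouples receptors, was lower (-1.52 ± 0.11). Rgs1, which restrains CXCR4 and CCR7 signalling in lymphocytes, was also higher in GFP− cells than in Eomes-GFP IgG cells, at 73.5 ± 2.8 CPM in GFP− cells against 29.3 ± 0.86 CPM in IgG cells (1.32 ± 0.15, adjusted p = 0.00153), with Rgs2 at 0.80 ± 0.16 (adjusted p = 0.0298). In treated Eomes-TKO cells Rgs1 was lower than in GFP− cells, at -1.06 ± 0.14 (adjusted p = 0.038). That call was lost under upper-quartile scaling (adjusted p = 0.057), without treated Eomes-TKO replicate 1 (0.101) and without GFP− replicate 1 (0.146), 2 (0.0867) or 3 (0.127). Against Eomes-GFP IgG cells, the Rgs1 call in GFP− cells was lost without IgG replicate 2 (adjusted p = 0.0758), and that of Rgs2 without any 1 of the 5 libraries (0.0679 to 0.383). The Rgs14 call between the fractions was lost without GFP− replicate 2 (adjusted p = 0.059) or 3 (0.0503).

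Adhesion genes split. Of 16, 15 were tested, 7 passed as higher and 6 as lower in GFP+ against GFP− cells, where 20.7% of all tested genes were higher and 16.5% lower. The median log2 fold change was 0.21. Integrin chains that bind vascular and stromal ligands were higher, Itga4 at 4297 ± 337 CPM in GFP+ cells against 1145 ± 130 CPM in GFP− cells (1.91 ± 0.11), with Itgal (1.30 ± 0.13), its partner Itgb2 (1.24 ± 0.13) and the sialyltransferase gene St3gal4 (1.22 ± 0.14). The lower ones included Chst15 (-2.27 ± 0.26) and the tissue-retention integrin chain Itgae (-1.57 ± 0.52), and Itga1 was at 0.34 CPM in GFP+ cells, under 3 counts, and at 3.7 CPM in GFP− cells. Of 17 genes of ligand synthesis and breakdown, 5 were tested and Sgpl1, the sphingosine 1-phosphate lyase, passed, at 93.5 CPM in GFP+ cells and 68.4 CPM in GFP− cells (0.45 ± 0.14, adjusted p = 0.0177), though not under upper-quartile scaling (0.0635) or without GFP+ replicate 2 (0.0982) or GFP− replicate 1 (0.0898). The Itgae call was lost without GFP+ replicate 1 (adjusted p = 0.07) or 2 (0.0905) and without GFP− replicate 2 (0.0639) or 3 (0.0753). Under upper-quartile scaling the signalling list had 17 higher and 7 lower, the transcription factors 7 higher and 11 lower with a median of 0.0027, and no called gene of the 5 lists changed direction. These lists were tested over all genes and were drawn up with earlier results of these data known, so their counts are descriptions. In the treated GFP− against Eomes-GFP IgG comparison, Klf4 (1.00 ± 0.19, adjusted p = 0.0291) and Nr4a1 (0.86 ± 0.12, adjusted p = 0.00588) also passed as higher, beside Eomes (-2.61), which the sort removed. Without IgG replicate 2 none of these 3 passed (adjusted p of 0.414 for Klf4, 0.0889 for Nr4a1 and 0.084 for Eomes), Nr4a1 was also lost without IgG replicate 1 (0.0827), and Klf4 was lost without any 1 of the 5 libraries (0.0594 to 0.414).

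**Figure D4:**
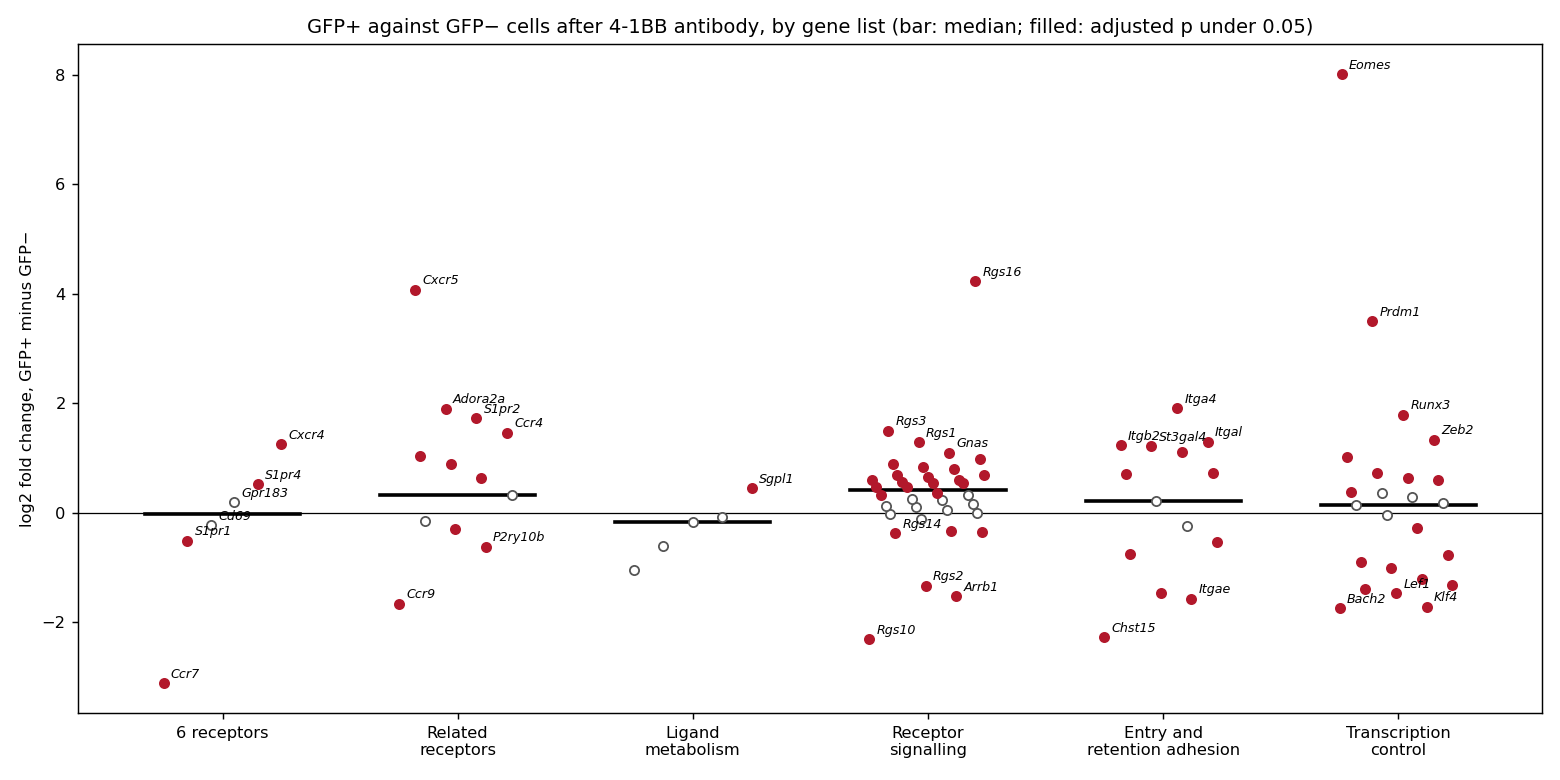
Log2 fold change of GFP+ against GFP− cells (vertical axis) for the 6 receptor genes and 5 lists of related genes (horizontal axis), with filled points for an adjusted p under 0.05 in edgeR and the list median as a bar. Genes under 3 counts in a fraction (Gpr34, Ccr10, S1pr5, Itga1 and Zfp683) are left out of the points. Signalling genes have the highest median, 0.41, and the 6 receptors a median of -0.02.

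The genes whose pattern over the 13 libraries was most like each member were found by the root mean square difference of mean-centred log2 CPM, among 9376 genes. For Ccr7 these were Rgmb (0.15), Tdrp (0.15) and Arhgef11 (0.17). For S1pr1 they were Galnt4, Peg13 and Hvcn1 (0.13 to 0.14), and for Cxcr4 Cmtm3, Sec14l1 and Gnptg (0.20 to 0.25). For S1pr4 they were Atp2a3, Tmem43 and Zbtb45 (all 0.07), for Gpr183 Slc9a9, Gfm2 and Zfp831 (0.06 to 0.10) and for Cd69 Naa12, Anks1 and Stx5a (0.09 to 0.10). The 13 libraries share 10 animals and these values are a description.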

How the data were processed

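Libraries were made from 11 ng of total RNA after depletion of ribosomal RNA, and the authors deposited estimated counts for each gene in 1 table. The submitters' processing notes name Salmon 1.5.2 and STAR 2.7.10a, trimming with Trim Galore 0.6.7 and cutadapt 3.4, and the GRCm39 build, while the annotation release and strand setting are not given in the sources used here. Of 47 library columns, 13 matched the labels of a sample each and 34 were not used. Values were rounded to whole numbers, since 6.25% to 7.33% of a library's values were not whole. The level of 3 counts covers counting error only, while SD and SE values include the spread between libraries.

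Groups came from the labels. Libraries of the GFP fractions that share a name prefix were read as 1 animal, giving 10 animals, and nothing else says that replicates are separate animals, so p-values measure the spread between libraries. The correlation of deviations from group means was 0.32, 0.11 and 0.06 in these 3 pairs, against -0.26 to 0.15 in unmatched ones. Replicates differed beyond counting noise (chi-square per degree of freedom of 7.74 to 29.2).

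edgeR 4.0.16 (R 4.3.3) was run with TMM scaling, the filterByExpr filter and the robust quasi-likelihood test in 1 model of 13 libraries and 5 groups with 8 residual degrees of freedom, adjusted by Benjamini-Hochberg over 14059 genes, two-sided at 0.05. The SE is the size of the log2 fold change over the root of its F statistic. Alternatives were upper-quartile and relative log expression scaling, no filter, DESeq2 1.42.0, the compared groups alone, a replicate or animal block, and leaving out each library. On simulated counts of 14059 genes for GFP+ against GFP− cells the test found 65 of the 67 genes given a 4-fold difference, 50 of the 67 given a 2-fold one and 11 of the 66 given a 1.5-fold one, and it made 5 false calls. Only these genes were changed, drawn from those above a low mean level, and all others had the same mean in every group. In the data 37.1% of tested genes passed in this comparison, so these rates need not hold there. The members, comparisons and gene lists were chosen with earlier results of these data known. Named genes are the members, Eomes, Klf2, Foxo1, the up to 4 called genes per direction with the largest fold in each list between the GFP fractions, list genes called elsewhere where a list had 3 or fewer, and the 3 genes most like each member, and some genes these rules name are not reported here. Cell type markers came from short fixed lists. Promoter sequences were read from RefSeq, with motifs searched on both strands, and lengths came from GENCODE M21. Coordinates on GRCm39 were not used.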

Additional observations from a re-analysis of the deposited data

How the results depend on the processing

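The number of members past the threshold stayed within 1.5 times of its value, or at 0 where it was 0, in 77 of 79 alternatives, and both exceptions lay between GFP− and Eomes-GFP IgG cells, where 1 member (Cxcr4) passed with no filter and with only the 2 groups compared, against 0. This bound cannot register the loss or gain of 1 member where 3 or 4 were called, so it does not describe single calls. In comparisons with GFP+ cells, calls of Cxcr4 and S1pr4 were lost in some alternatives, as given above. Cd69 and S1pr4 gained a call in others. The animal block changed no member call between the fractions, and the replicate block changed that of Cxcr4 between GFP+ and Eomes-GFP IgG cells alone. Counts over all genes were less stable. Between GFP− and Eomes-GFP IgG cells 107 genes passed, and 521 with no filter, 282 with DESeq2, 393 with the 2 groups alone, 266 with the replicate block and 1 to 21 with a library left out. Between Eomes-TKO and Eomes-GFP IgG cells 2 passed, and 112, 5 and 1 under the first 3 of these, and 0 to 5 with a library left out. Between treated and IgG Eomes-TKO cells 6 passed, and 258, 59 and 0 under the first 3, 15 with the block, 10 under upper-quartile scaling and 0 to 83 with a library left out. Between treated Eomes-TKO and GFP− cells 6 passed, and 220 with no filter, 52 with DESeq2, 12 with the block, 0 under upper-quartile scaling and 0 to 15 with a library left out. In comparisons with GFP+ cells a library left out gave 4188 to 4612 genes against GFP−, 3195 to 4424 against Eomes-GFP IgG and 3060 to 4499 in treated Eomes-TKO against GFP+ cells.

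Called members kept their direction in every alternative run, and sign changes occurred where the value lay near 0 and was not called. For S1pr4 in Eomes-TKO against Eomes-GFP IgG cells the log2 fold change was 0.00602 under upper-quartile scaling, 0.000605 under relative log expression scaling, 0.000351 with no filter, 0.0011 with DESeq2 and 0.00228 with the 2 groups alone. For Cd69 in treated against IgG Eomes-TKO cells it was 0.0113, 0.00157, 0.00046 (DESeq2), 0.00534 (2 groups alone) and 0.0896 (replicate block). For Gpr183 in treated Eomes-TKO against GFP+ cells it was 0.12 under upper-quartile scaling, 0.00201 with the 2 groups alone and 0.0018 with the block. Between GFP− and Eomes-GFP IgG cells Foxo1 had -0.0228 with the block and Klf2 0.00198 with the 2 groups alone.

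Leaving out 1 library at a time, which in groups of 2 assumes that the lone library varies like the other groups, Klf2 ran from -0.15 to 0.0138 in GFP+ against GFP−, from -0.16 to 0.0189 in GFP+ against Eomes-GFP IgG, from -0.0796 to 0.052 in GFP− against Eomes-GFP IgG, from -0.31 to 0.0265 in treated against IgG Eomes-TKO, from -0.0859 to 0.25 in treated Eomes-TKO against GFP− and from -0.0527 to 0.32 in treated Eomes-TKO against GFP+ cells. In GFP− against Eomes-GFP IgG cells Gpr183 ran from -0.0843 to 0.11 and Foxo1 from -0.0375 to 0.0619. In Eomes-TKO against Eomes-GFP IgG cells S1pr4 ran from -0.0905 to 0.0911, Cxcr4 from -0.29 to 0.17 and Cd69 from -0.20 to 0.0523. In treated against IgG Eomes-TKO cells Gpr183 ran from -0.034 to 0.12, Cd69 from -0.0909 to 0.17 and Foxo1 from -0.15 to 0.0665. In treated Eomes-TKO cells S1pr4 ran from -0.035 to 0.10 and Cxcr4 from -0.53 to 0.32 against GFP− cells, and Gpr183 from -0.15 to 0.11 against GFP+ cells. The cause of these moves was not tested. Upper-quartile scaling moved the median log2 fold change of all genes by -0.14 in GFP+ against GFP− cells, -0.14 against Eomes-GFP IgG and 0.16 in treated Eomes-TKO against GFP+ cells, and higher calls between the fractions were then 41.4% of calls in place of 55.7%. Groups of 2 or 3 libraries limit every comparison, and the least counted member, Cxcr4, had a counting error of up to 8.7% in a library.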
